A study of Mus musculus with 18 samples.

Results

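The 28 genes described here belong to cholesterol synthesis and its control by sterol regulatory element-binding proteins (SREBPs), and were followed in astrocytes and microglia sorted from brains of mice with and without a microglial deletion of Tgfb1. They were chosen by name, by a rule that used none of their values, but with earlier results of these data known. All 28 were found among the 35869 gene symbols of the files. They comprise 18 enzymes that lead from acetyl-CoA to cholesterol, 2 enzymes of isoprenoid side branches, both SREBP genes, 5 genes for the escort, retention and cleavage of SREBPs, and 1 sterol transfer protein.

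RNA of KO astrocytes (n = 4), WT astrocytes (n = 5), KO microglia (n = 4) and WT microglia (n = 4) was compared. KO animals were Cx3cr1CreERT2-Tgfb1fl/fl, in which a tamoxifen-activated recombinase can delete Tgfb1, which encodes a transforming growth factor. The animals labelled WT carried Cx3cr1CreERT2 alone, so the recombinase was present in every group. All mice were on a C57BL/6 background and received 5 doses of tamoxifen at 180 mg/kg by oral gavage. The Cx3cr1 promoter is active in microglia and in other brain macrophages that express Cx3cr1, and not in astrocytes, so the astrocytes of KO animals were not themselves the target of the deletion. Age was not given in the labels. Levels are TPM, a share of transcripts corrected for gene length and scaled to a fixed sum in each library. TPM does not preserve read depth, so counting intervals cannot be given.

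Cells build cholesterol from acetyl-CoA through mevalonate, farnesyl diphosphate, squalene and lanosterol. When membrane sterol is low, SCAP escorts SREBP-2 from the endoplasmic reticulum to the Golgi, where the proteases encoded by Mbtps1 and Mbtps2 release a fragment that activates the genes of the pathway. When sterol is high, INSIG proteins hold the complex back. In the adult brain, which takes up little cholesterol from blood, astrocytes are a main site of synthesis and export cholesterol on ApoE particles.

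Tgfb1, the targeted gene, was at 1.3 to 2.0 TPM in KO microglia and 2.8 to 3.4 TPM in WT microglia, without overlap (exact two-sided permutation test, p = 0.0286, the smallest that 70 assignments can give). The astrocyte sorts carried the astrocyte markers Aqp4 (72.9 to 166.4 TPM in KO and 118.4 to 137.6 TPM in WT libraries) and Slc1a2. They also held oligodendrocyte RNA, whose summed marker levels are given beside the astrocyte results. Microglia markers were low there, with P2ry12 at 6.7 to 12.4 TPM in KO and 8.4 to 14.7 TPM in WT astrocyte libraries. Female-specific Xist RNA was present in every KO library and in the libraries of WT animals 1 and 2, whereas WT animals 3, 4 and 5 had the Y-linked Ddx3y instead. Of the 28 genes 3, Nsdhl, Ebp and Mbtps2, lie on the X chromosome.

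Promoter sequence is shown for 4 of the genes to let the SREBP motif and the box of its partner factor NF-Y be seen in place. They were taken among genes whose stretch overlaps no annotated exon: Hmgcs1, the only one of the 24 genes with a promoter window in which this SREBP motif was found, Mvd, an enzyme gene among the lowest in KO relative to WT astrocytes, and Ebp and Mbtps2, which were not lower in KO astrocytes. Each run holds the 250 bases before the start annotated by RefSeq (GRCm38.p6), read 5′ to 3′ on the gene's strand. They lie at chr13:119690101-119690350 (plus strand) for Hmgcs1, chr8:122443423-122443672 (minus) for Mvd, chrX:8193513-8193762 (minus) for Ebp and chrX:157598716-157598965 (minus) for Mbtps2. Capitals mark the sterol regulatory element TCACNCCAC and the NF-Y box CCAAT, each on either strand, so that ATTGG is the box on the other strand.
Hmgcs1: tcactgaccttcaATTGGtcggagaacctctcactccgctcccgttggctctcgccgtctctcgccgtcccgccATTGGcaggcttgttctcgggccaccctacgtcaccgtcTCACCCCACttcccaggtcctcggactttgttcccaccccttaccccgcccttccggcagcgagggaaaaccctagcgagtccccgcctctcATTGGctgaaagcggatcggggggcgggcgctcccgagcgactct
Mvd: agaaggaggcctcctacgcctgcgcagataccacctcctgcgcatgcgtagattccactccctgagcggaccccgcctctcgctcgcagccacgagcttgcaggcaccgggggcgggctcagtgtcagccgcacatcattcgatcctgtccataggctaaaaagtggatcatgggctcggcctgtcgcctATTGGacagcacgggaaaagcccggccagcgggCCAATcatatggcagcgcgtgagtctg
Ebp: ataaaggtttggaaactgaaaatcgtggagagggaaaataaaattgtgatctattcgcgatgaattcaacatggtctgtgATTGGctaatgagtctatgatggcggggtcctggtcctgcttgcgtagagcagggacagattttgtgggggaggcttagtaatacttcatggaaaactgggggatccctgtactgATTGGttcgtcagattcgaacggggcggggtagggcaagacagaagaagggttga
Mbtps2: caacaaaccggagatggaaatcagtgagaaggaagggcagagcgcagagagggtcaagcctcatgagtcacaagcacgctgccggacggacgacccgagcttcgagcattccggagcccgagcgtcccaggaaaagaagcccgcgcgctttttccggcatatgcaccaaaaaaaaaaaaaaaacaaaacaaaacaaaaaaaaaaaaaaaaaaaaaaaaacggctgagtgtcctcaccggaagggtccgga

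Windows from 250 bases before to 50 after a start were given for 24 of the 28 genes, 32 windows in all. Fdft1, Fdps, Stard4 and Sqle had none. CCAAT stood in 21 of the 32 windows (65.6%), which belong to 20 of the 24 genes, against 37.4% of all 32851 windows of the table. TCACNCCAC stood in 1 of the 32 windows (3.12%), against 1.24% of all windows. In Hmgcs1 it begins at position -137 from the start, and NF-Y boxes lie on both sides of it. These matches describe letters in a window and were not tested as binding sites.

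KO astrocytes were compared with WT astrocytes to ask whether sterol synthesis genes of astrocytes differ when Tgfb1 is deleted in their Cx3cr1-expressing neighbours. Most of the pathway was lower in mean level in KO astrocytes, but none of the 28 genes passed the test across all genes (limma on log2(TPM + 1), Benjamini-Hochberg adjusted p under 0.05). Of 15231 genes tested, 1 passed, which is 0.00657% and lies outside the pathway. The 28 genes had a median log2 difference of -0.49, against 0.072 over all genes tested, and 22 were lower in mean, against 39.9% of all genes. An unadjusted p under 0.05 with a lower value was reached by 18 of the 28, against 4.35% of all genes, and by 0 with a higher value, against 8.38%. The KO and WT values did not overlap for 6 of the 28, all lower in KO, against 1.46% of all genes with lower and 2.94% with higher non-overlapping values. The genes vary together from library to library and were named with earlier results known, so their counts are not independent observations.

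**Figure D1:**
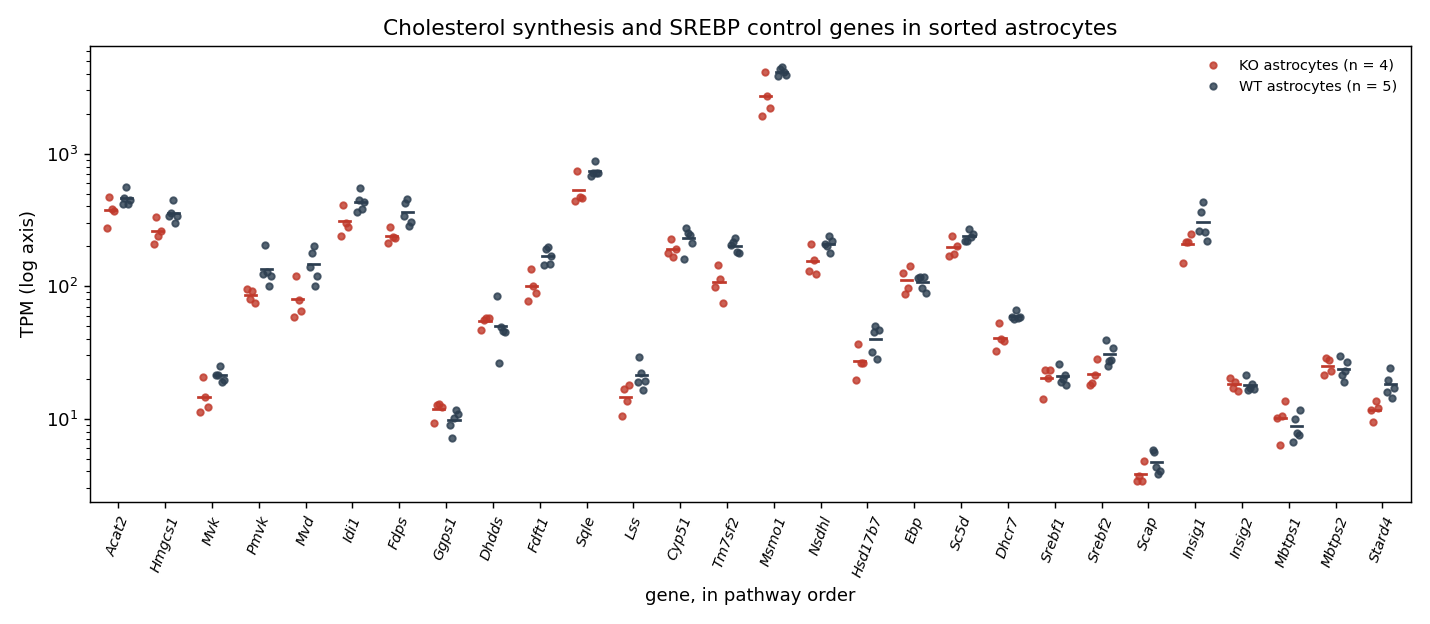
TPM (log axis) of each of the 28 genes, in pathway order, in KO astrocytes (red, n = 4) and WT astrocytes (dark blue, n = 5); each point is a library and each bar the mean. Msmo1 and Sqle are the most abundant, and the red points of Tm7sf2 and Fdft1 lie below all dark blue points.

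The early enzymes, which make mevalonate, were each lower in mean in KO astrocytes. Hmgcs1, which makes HMG-CoA, was at 209.8, 333.5, 238.5 and 261.3 TPM in KO animals 1 to 4, against 339.3, 356.0, 443.6, 300.6 and 340.7 TPM in WT animals 1 to 5. Its log2 difference was -0.46 (SE 0.15; limma adjusted p = 0.324). KO animal 2 lay within the WT values and the other KO animals below them. Acat2, the cytosolic thiolase that condenses acetyl-CoA, and Mvk, which phosphorylates mevalonate, overlapped between the groups in the same way, with log2 differences of -0.32 and -0.53.

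Between mevalonate and farnesyl diphosphate the 4 enzymes had log2 differences from -0.88 to -0.50. Mvd, the decarboxylase that forms isopentenyl diphosphate, was at 58.7, 118.9, 78.0 and 65.5 TPM in KO animals, against 140.1, 178.2, 201.9, 101.0 and 119.8 TPM in WT animals. All KO values but that of animal 2 lay below every WT value (log2 difference -0.88, SE 0.25; limma adjusted p = 0.288). Pmvk, which adds a phosphate to phosphomevalonate, was at 94.9, 80.6, 92.0 and 75.1 TPM in KO animals, against 124.2, 205.9, 128.1, 101.0 and 119.2 TPM in WT animals. The groups did not overlap, and WT animal 2 stood well above the other WT animals. Fdps, which makes farnesyl diphosphate, was at 210.3 to 279.4 TPM in KO and 286.2 to 456.4 TPM in WT animals, again without overlap (log2 difference -0.58, SE 0.15; limma adjusted p = 0.284). Idi1, the isomerase before it, overlapped (log2 difference -0.50).

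The side branches did not follow. Ggps1, which makes the geranylgeranyl donor for protein prenylation, averaged 11.9 ± 1.73 TPM in KO and 9.72 ± 1.77 TPM in WT astrocytes (SD, n = 4 and 5). Dhdds, a subunit of the enzyme that builds dolichol, averaged 54.4 ± 5.35 TPM in KO and 50.4 ± 21.3 TPM in WT astrocytes (SD, n = 4 and 5). Both overlapped between groups, with log2 differences of 0.27 and 0.20.

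Squalene synthase, encoded by Fdft1, marks the step committed to sterols. It was at 77.6, 135.3, 100 and 88.6 TPM in KO animals, against 145.7, 189.2, 196.5, 147.6 and 167.9 TPM in WT animals. The highest KO value, again that of animal 2, lay below the lowest WT value (log2 difference -0.77, SE 0.17; limma adjusted p = 0.221). Fdft1 (chr14:63145150-63179578, minus strand, GRCm38) shares 774 exonic bases with Ctsb on the opposite strand. Ctsb itself differed little between these groups (log2 difference -0.075), and the strand setting of the counting is not given in the sources used here. Sqle, which oxidises squalene, was at 439.5, 742.7, 474.1 and 464.2 TPM in KO animals, against 673.8 to 877.1 TPM in WT animals. KO animal 2 lay among the WT animals and the other KO animals below them (log2 difference -0.51). Lss, which closes the sterol rings, was low, at 10.4 to 17.9 TPM in KO and 16.4 to 29.2 TPM in WT animals (log2 difference -0.51). It shares 381 exonic bases with 4930483K19Rik on the opposite strand, which had a similar log2 difference of -0.59 (limma adjusted p = 0.346). With the strand setting not given, reads in that part cannot be assigned to either gene.

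Of the 8 enzymes from lanosterol to cholesterol 7 were lower in mean. Tm7sf2, a sterol reductase, had the most negative log2 difference of the 28 genes in astrocytes, -0.93 (SE 0.17; unadjusted p = 0.000312, limma adjusted p = 0.221). It was at 98.4, 144.1, 114.1 and 74.7 TPM in KO animals, against 203.5, 217.1, 231.9, 180.3 and 178.7 TPM in WT animals. Each KO value was well below each WT value. Tm7sf2 (chr19:6062821-6068373, minus strand) shares 532 exonic bases with its same-strand neighbour Vps51, which had a log2 difference of -0.28 (limma adjusted p = 0.386). Reads in the shared part cannot be assigned to either gene from the files.

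Msmo1, the methylsterol oxidase, was the most abundant of the 28 genes in both astrocyte groups. It was at 1920, 4097, 2735 and 2226 TPM in KO animals, against 3822, 4382, 4535, 4147 and 3928 TPM in WT animals. KO animal 2 lay within the WT values, and the other KO animals were below them (log2 difference -0.66, SE 0.19; limma adjusted p = 0.291). Dhcr7, the reductase that yields cholesterol itself, was at 32.2 to 53.0 TPM in KO and 56.9 to 65.7 TPM in WT animals, without overlap (log2 difference -0.55). Nsdhl, Hsd17b7, Sc5d and Cyp51, which carry out steps between lanosterol and the substrate of Dhcr7, overlapped and had log2 differences from -0.55 to -0.26. Ebp, a sterol isomerase, was at 87.1 to 140.8 TPM in KO and 88.6 to 118.2 TPM in WT astrocytes, the 2 ranges lying over each other.

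Among the regulators, Srebf2, which encodes the SREBP that drives sterol synthesis, was at 18.1, 18.7, 21.4 and 28.4 TPM in KO animals, against 39.3, 24.8, 27.3, 27.6 and 33.9 TPM in WT animals. KO animal 4 overlapped with the WT animals (log2 difference -0.48, SE 0.18; limma adjusted p = 0.343). Srebf1, whose main product controls fatty acid synthesis, averaged 20.3 ± 4.39 TPM in KO and 20.8 ± 3.18 TPM in WT astrocytes (SD, n = 4 and 5). Its log2 difference of -0.049 turned positive with some alternative settings.

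Insig1, a retention protein gene that SREBPs activate, was at 149.6, 216.4, 214.2 and 247.3 TPM in KO animals, against 261.7, 365.0, 431.2, 258.1 and 219.6 TPM in WT animals. KO animal 4 exceeded WT animal 5, and the remaining values were apart (log2 difference -0.55, SE 0.21; limma adjusted p = 0.358). Insig2, its paralog, was at 16.2 to 20.2 TPM in KO and 16.5 to 21.5 TPM in WT animals. Its log2 difference was 0.015, with a 95% interval from -0.27 to 0.29. Scap, Mbtps1 and Mbtps2 overlapped between groups, with log2 differences of -0.23, 0.17 and 0.076. Stard4, a cytosolic sterol carrier gene that SREBP-2 activates, was at 11.7, 9.5, 13.5 and 12 TPM in KO animals and 15.8, 19.7, 24.3, 14.3 and 17 TPM in WT animals. These groups did not overlap (log2 difference -0.59, SE 0.17; limma adjusted p = 0.291).

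**Figure D2:**
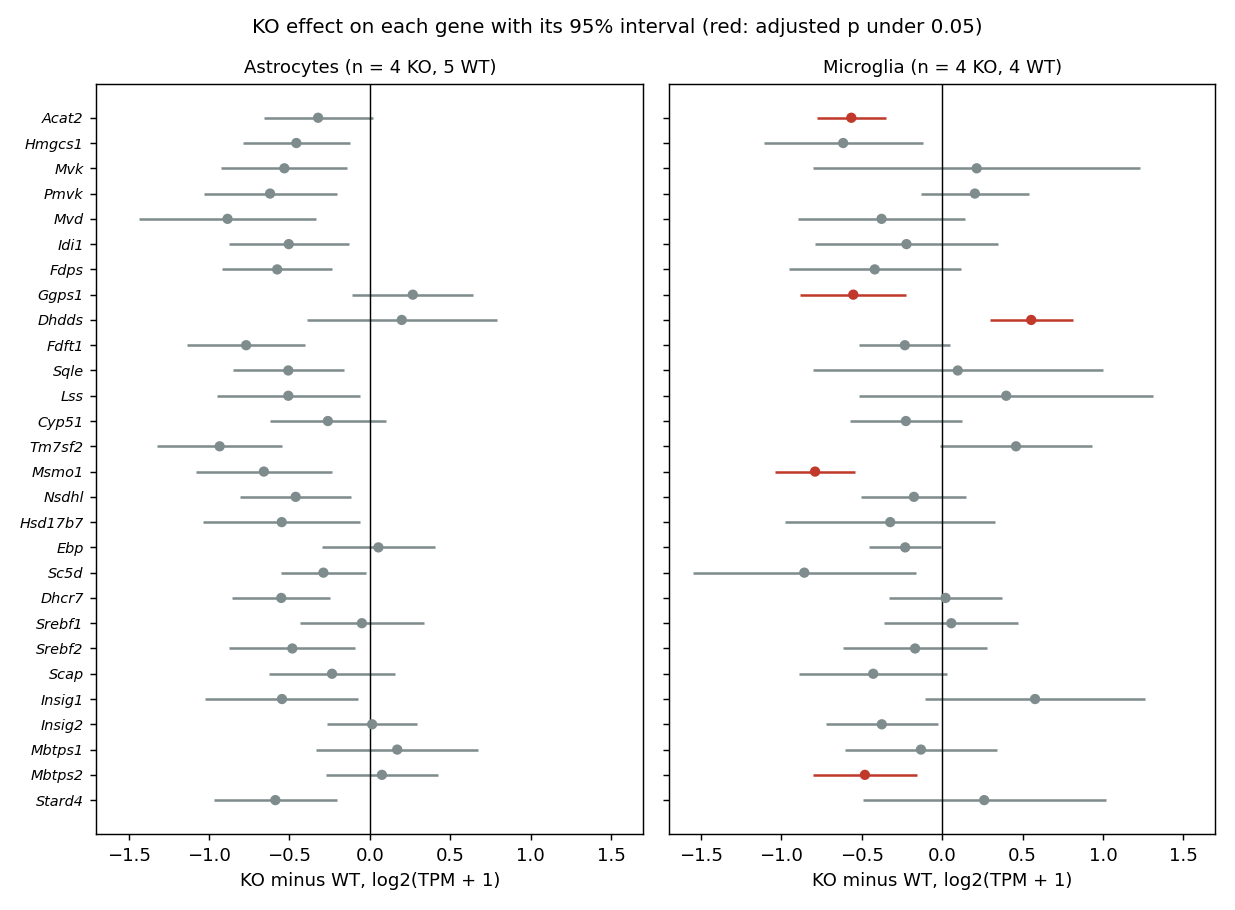
KO minus WT difference of log2(TPM + 1) with its 95% interval for each gene in astrocytes (left, 4 KO and 5 WT libraries) and microglia (right, 4 of each); red marks an adjusted p under 0.05. In astrocytes 22 of 28 points lie left of 0 and none is red; in microglia 4 red points lie left of 0 and 1, Dhdds, right of it.

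Enzyme levels and cell marker levels both differed between the astrocyte libraries. KO animal 2 and then KO animal 3 had the highest sums of both enzymes and astrocyte markers. The lowest sum was that of KO animal 1 for enzymes and of KO animal 4 for astrocyte markers. The 18 enzymes together made up 4297, 7698, 5437 and 4887 TPM in KO animals 1 to 4, against 7402, 8542, 9195, 7678 and 7660 TPM in WT animals 1 to 5. KO animal 2 lay within the WT range, and without Msmo1 its sum of 3601 TPM, against 3531 to 4660 TPM in WT animals, did so too. Among KO astrocyte libraries, animal 2 had the highest value for 17 of the 28 genes and animal 1 the lowest for 20. Astrocyte markers were lower in mean in KO libraries for 11 of 12 genes, with sums of 25171, 36648, 27009 and 20845 TPM in KO animals 1 to 4, against 28321 to 33507 TPM in WT animals.

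Markers of other cells were higher in mean in KO libraries. Oligodendrocyte markers were higher in mean for 12 of 12 genes, with sums of 7386 to 18894 TPM in KO and 5127 to 7746 TPM in WT libraries. Mural and fibroblast-like markers were higher for 11 of 11, with sums of 772.5 to 9676 TPM in KO and 208.3 to 3229 TPM in WT libraries. Endothelial markers were higher for 8 of 8, at 167.9 to 1462 TPM in KO and 60.6 to 439.1 TPM in WT libraries. No marker of these 4 lists passed the test, and none was at 0 in all libraries of a group. Border-associated macrophage markers were higher for 3 of 3 tested, with sums of 6.9 to 95.4 TPM in KO and 3.7 to 13.6 TPM in WT libraries, and neuron markers for 3 of 3, with 46.4 to 130 TPM in KO and 25.3 to 59.5 TPM in WT libraries. Ependymal markers were higher for 5 of 5, at 230.9 to 303.6 TPM in KO and 155.0 to 312.8 TPM in WT libraries, and dissociation stress genes for 7 of 8, at 437.4 to 643.4 TPM in KO and 420.0 to 528.8 TPM in WT libraries. None of these passed the test either. Markers of oligodendrocyte precursors and blood leukocytes were each higher for the 2 tested, and homeostatic microglia markers for 5 of 11. In bulk RNA a smaller share of astrocytes in a library and less of a transcript per astrocyte cannot be told apart.

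Dividing each library by the geometric mean of its 12 astrocyte markers, a setting added after the data were seen, moved the median of all genes to 0.31 and that of the 28 genes to -0.23. With that division 20 of 28 were lower in mean, against 15.3% of all genes. An unadjusted p under 0.05 was then reached by 4 with a lower value, against 0.801% of all genes, and by 1 with a higher value, against 18.3%. Without the KO libraries of animals 1 and 3, which had the most mural RNA, 22 of 28 were lower, against 42.5% of all genes, and 6 had an unadjusted p under 0.05 with a lower value, against 3.29%. Against WT animals 1 and 2 alone, which share the Xist RNA of the KO animals, 25 were lower, against 41.8%, and 9 had such a p, against 5.02%. How far the cell makeup of the libraries accounts for the lower levels was not tested beyond these values.

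**Figure D3:**
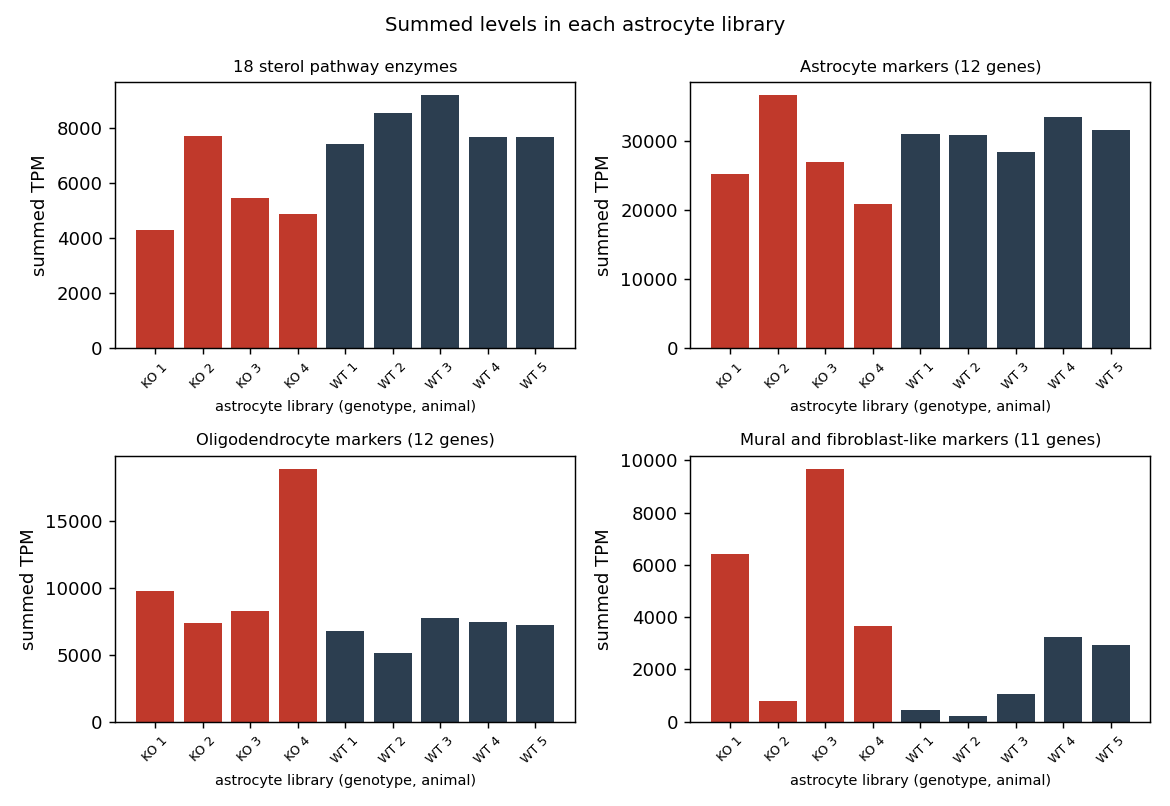
Summed TPM in each KO (red) and WT (dark blue) astrocyte library, by animal, for the 18 enzymes and for astrocyte, oligodendrocyte and mural or fibroblast-like markers. The KO library of animal 2 stands above the other KO libraries in enzymes and astrocyte markers and below them in oligodendrocyte and mural markers.

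In microglia, the cells in which the recombinase acts, the pathway was expressed at a much lower level and few of its genes passed the test. Of the 28 genes 4 fell in KO microglia, Acat2, Msmo1, Ggps1 and Mbtps2, and 1 rose, Dhdds (limma adjusted p under 0.05). This is 5 of 28, while 28.4% of the 13054 genes tested passed, 14.2% higher and 14.2% lower. KO and WT values did not overlap for 6 genes that were lower in KO and 1 that was higher, while 15.7% of all genes had lower and 14.8% higher non-overlapping values. The median log2 difference was -0.22 for the 28 genes and 0.0040 for all genes, and 18 of the 28 were lower in mean, against 49.5% of all genes. An unadjusted limma p under 0.05 with a lower value was reached by 8 of the 28, against 19.3% of all genes. With a higher value it was reached by 1, against 19.4%.

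**Figure D4:**
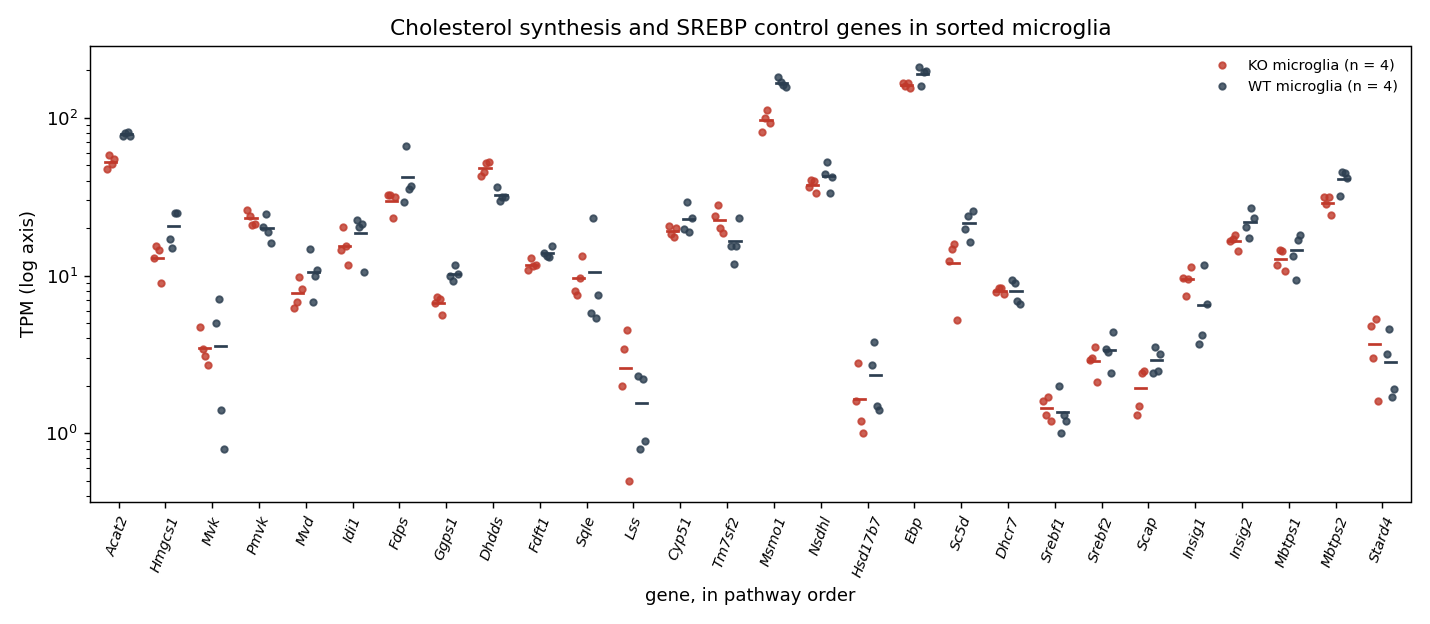
TPM (log axis) of each of the 28 genes, in pathway order, in KO microglia (red, n = 4) and WT microglia (dark blue, n = 4); each point is a library and each bar the mean. The red points of Acat2 and Msmo1 lie below all dark blue points, those of Dhdds above them, and Ebp is the most abundant gene in both groups.

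Msmo1 was at 81.5, 99.8, 112.1 and 93.3 TPM in KO animals 1 to 4, against 182.6, 167.7, 161.6 and 156.7 TPM in WT animals 1, 2, 4 and 5. All KO values were far below all WT values, and the log2 difference was -0.79 (SE 0.11; limma adjusted p = 0.000576). Acat2 was at 47.4, 58.1, 51.0 and 54.8 TPM in KO animals, against 76.4, 79.8, 80.9 and 76.7 TPM in WT animals. The spread within each group was small beside the gap (log2 difference -0.57, SE 0.10; limma adjusted p = 0.00174).

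Both isoprenoid branch enzymes changed in microglia, in opposite directions. Ggps1 was at 6.7, 7.3, 7.1 and 5.6 TPM in KO animals, against 9.9, 9.2, 11.6 and 10.3 TPM in WT animals (log2 difference -0.55, SE 0.15; limma adjusted p = 0.0188). The groups did not overlap, but the call ended without KO animal 1 (adjusted p = 0.0538), without WT animal 4 (0.0558) and against WT animals 1 and 2 alone (0.124), under limma in each case. It shares 257 exonic bases with Arid4b on the opposite strand, whose log2 difference was 0.032. Dhdds (chr4:133969028-134000918, minus strand) was at 42.7, 45.3, 51.6 and 52.4 TPM in KO animals, against 36.4, 29.8, 31.5 and 31.7 TPM in WT animals. Every KO value was above every WT value (log2 difference 0.55, SE 0.11; limma adjusted p = 0.00542), although a spread shared over all 4 groups ended the call (adjusted p = 0.102).

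Mbtps2, which encodes the protease that makes the final cut of SREBPs, was at 31.4, 28.4, 31.3 and 24.2 TPM in KO animals, against 32.0, 45.4, 44.4 and 41.3 TPM in WT animals. WT animal 1 lay just above the KO animals and the other WT animals well above (log2 difference -0.48, SE 0.14; limma adjusted p = 0.0332). The call ended when any library but that of WT animal 1 was left out, with limma adjusted p from 0.0506 to 0.0844 in those 7 fits, with no filter on low values (0.0521) and against WT animals 1 and 2 alone (0.171). Mbtps2 (chrX:157535371-157598715, minus strand) shares 2867 exonic bases with Yy2 on the same strand, whose log2 difference was -0.16 (limma adjusted p = 0.705). Reads in that part cannot be assigned to either gene.

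The remaining 23 genes did not pass in microglia. Hmgcs1 was at 12.9, 15.3, 14.6 and 9.0 TPM in KO animals, against 17.1, 15.0, 25.1 and 24.8 TPM in WT animals (log2 difference -0.62; limma adjusted p = 0.0648). Sc5d, which introduces a ring double bond, was at 12.4, 14.8, 15.9 and 5.2 TPM in KO animals, against 19.8, 24.0, 16.3 and 25.6 TPM in WT animals (log2 difference -0.86; limma adjusted p = 0.0669). The groups overlapped for Hmgcs1 and lay apart for Sc5d, where KO animal 4 was far below the rest.

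Insig1 and Tm7sf2 were higher in mean in KO microglia. Insig1 was at 9.7, 7.4, 9.5 and 11.4 TPM in KO animals, against 3.7, 4.2, 11.7 and 6.6 TPM in WT animals (log2 difference 0.58; limma adjusted p = 0.197), and WT animal 4 was the highest of all 8. Without that library Insig1 passed (log2 difference 0.87; adjusted p = 0.0244), as it did against WT animals 1 and 2 alone (1.07; adjusted p = 0.0103), both under limma. Tm7sf2 was at 18.6 to 28.2 TPM in KO and 11.9 to 23.2 TPM in WT microglia (log2 difference 0.46; limma adjusted p = 0.138), and passed without WT animal 5 (0.63; adjusted p = 0.0375). Mvk, Lss, Hsd17b7, Srebf1, Srebf2, Scap and Stard4 averaged under 5 TPM in both groups, where differences of log2(TPM + 1) understate fold changes.

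The 18 enzymes together made up 516.1, 554.4, 544.2 and 499.5 TPM in KO microglia and 712.1, 715.2, 661.4 and 676.4 TPM in WT microglia, without overlap. Msmo1, Ebp and Acat2 were the 3 most abundant of the enzymes in both groups. Other programmes changed in the same libraries: 12 of 12 homeostatic microglia markers fell, with sums of 10971 to 12232 TPM in KO and 51963 to 56463 TPM in WT microglia. Border-associated macrophage markers summed to 5391 to 6047 TPM in KO and 369.4 to 706.7 TPM in WT microglia, with 4 of 7 higher and 1 lower by the test. Dissociation stress genes summed to 848.8 to 1102 TPM in KO and 283.9 to 609.9 TPM in WT microglia, with 5 of 8 higher and 1 lower.

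Of 12 astrocyte markers 7 could be tested in microglia, and 3 rose, 1 fell and 3 did not pass, with a median log2 difference of 1.25. Their sum was nevertheless lower, at 93.1 to 116.5 TPM in KO and 302.4 to 642.2 TPM in WT microglia, since Slc1a3, the marker that fell, was at 33.8 to 39.3 TPM in KO and 274.9 to 608.3 TPM in WT microglia. Aqp4 was at 0.1 to 0.3 TPM in KO and 0.1 to 0.5 TPM in WT microglia, and Slc1a2 at 0.7 to 1.4 TPM in KO and 0.2 to 0.5 TPM in WT microglia. The part of these shifts in the lower Msmo1 and Acat2 levels was not tested.

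The KO effect itself was set against cell type, as the effect in astrocytes minus that in microglia. Of the 28 genes 3 passed, while 15.5% of the 17087 genes tested did, 8.87% with a positive and 6.63% with a negative difference. Tm7sf2 had the largest of these, -1.39 (SE 0.28; limma adjusted p = 0.00236), being lower in mean in KO astrocytes and higher in mean in KO microglia. Its same-strand neighbour Vps51, with which it shares exonic bases, had -0.48 in this contrast (limma adjusted p = 0.0709) and 0.21 in KO against WT microglia. Pmvk had a difference of -0.82 (SE 0.25; limma adjusted p = 0.0322), and its call ended when any of 6 of the 17 libraries was left out. In microglia Pmvk was at 20.8 to 26.2 TPM in KO and 16.2 to 24.5 TPM in WT animals. Ggps1 differed the other way, by 0.82 (SE 0.21; limma adjusted p = 0.0135).

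Insig1 and Dhcr7 stood just outside the threshold of this contrast, at -1.12 and -0.57 (limma adjusted p = 0.0586 and 0.0594), and both passed after median-of-ratios scaling or quantile normalization. Msmo1, which was lower in mean in KO cells of both types, had a difference between cell types of 0.13 with a 95% interval from -0.36 to 0.62.

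WT astrocytes and WT microglia were compared to show the level of the pathway in each sort. The WT astrocyte sort also held more oligodendrocyte RNA, with 12 of 12 oligodendrocyte markers higher by the test. Their sums were 5127 to 7746 TPM in WT astrocytes and 65.7 to 175.2 TPM in WT microglia. The part of oligodendrocyte RNA in the differences below was not tested. Of the 28 genes 22 were higher in WT astrocytes, 3 were lower and 3 did not pass, while 65.7% of the 15332 genes tested passed, 39.5% higher and 26.2% lower. The median log2 difference was 2.99 for the 28 genes and 0.19 for all genes. Values did not overlap for 22 genes that were higher and 2 that were lower, while 33.8% and 22.6% of all genes did so.

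**Figure D5:**
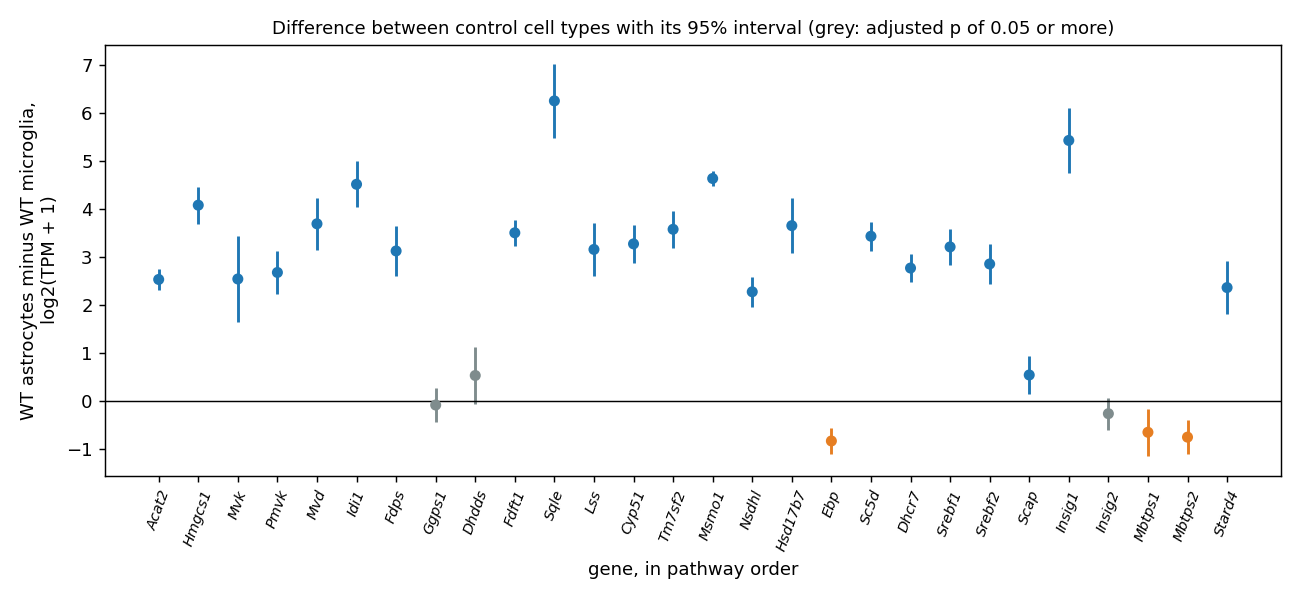
Difference of log2(TPM + 1) between WT astrocytes (n = 5) and WT microglia (n = 4) with its 95% interval for each gene; blue is higher in astrocytes, orange lower, grey did not pass. Sqle (6.24) and Insig1 (5.42) are the highest, while Ebp, Mbtps1 and Mbtps2 lie below 0.

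Among the enzymes Sqle had the largest difference, 6.24 (SE 0.34), at 739 ± 79.1 TPM in WT astrocytes and 10.5 ± 8.53 TPM in WT microglia (SD, n = 5 and 4). WT microglia of animal 2 had 23.2 TPM of Sqle and the other 3 animals 5.4 to 7.5 TPM. Msmo1 was at 4163 ± 299 TPM in WT astrocytes and 167 ± 11.2 TPM in WT microglia (SD, n = 5 and 4). Ebp was the exception among the 18 enzymes. It averaged 106.8 ± 13.5 TPM in WT astrocytes and 190.5 ± 21.7 TPM in WT microglia, where it was the most abundant of the 28 genes (log2 difference -0.83, SE 0.12; limma adjusted p = 0.000138).

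The regulators split. Srebf1 and Srebf2 were higher in WT astrocytes by 3.21 and 2.85 on the log2 scale, and the retention genes differed from each other. Insig1 averaged 307 ± 87.9 TPM in WT astrocytes and 6.55 ± 3.66 TPM in WT microglia, whereas Insig2 averaged 18 ± 2.08 TPM in WT astrocytes and 21.9 ± 4.00 TPM in WT microglia (SD, n = 5 and 4; log2 difference -0.26, limma adjusted p = 0.146). The protease genes Mbtps1 and Mbtps2 were lower in WT astrocytes, by -0.65 and -0.75. With the animal as a block, since both sorts came from the same mice, the call of Mbtps1 ended (limma adjusted p = 0.0555). Scap was higher by 0.54, a call that ended with quantile normalization (0.12; limma adjusted p = 0.588).

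Levels among the genes covered a wide range within each sort. In KO astrocytes mean levels ran from 3.83 TPM for Scap to 2745 TPM for Msmo1, and in WT astrocytes from 4.70 TPM for Scap to 4163 TPM for Msmo1. Sqle, Acat2, Idi1 and Fdps followed Msmo1 in WT astrocytes, at 739, 460.2, 433.6 and 361.3 TPM. Acat2 and Idi1 overlapped there, as did Idi1 and Fdps. In microglia the order began with Ebp, Msmo1 and Acat2, at 161.5, 96.7 and 52.8 TPM in KO and 190.5, 167 and 78.5 TPM in WT animals. The ranges of these 3 did not overlap in KO microglia, and Ebp and Msmo1 overlapped in WT microglia.

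A set of 5 lists with 78 related genes place the pathway beside its neighbours, and all 5 had no gene past the threshold in KO against WT astrocytes. Of 15 other enzymes of mevalonate, sterol and isoprenoid metabolism 8 were lower in mean there, against 39.9% of all genes tested. Of 15 tested genes of sterol uptake and transport 7 were lower, and of 17 of fatty acid synthesis 13. Of 13 sterol export, oxysterol and related genes 8 were lower, and of 14 of SREBP processing 6.

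In microglia, the list of sterol export, oxysterol and related genes had the most calls of the 5: of 12 tested 6 rose and 1 fell in KO animals. Apoe rose to 8951 ± 948 TPM in KO microglia, against 1335 ± 394 TPM in WT microglia (SD, n = 4 each), while the effluxer gene Abcg1 rose by 1.12 and the sterol hydroxylase gene Cyp27a1 by 2.08 on the log2 scale. Lpcat3, a phospholipid remodelling enzyme gene, fell by 1.25. Of 13 genes of sterol uptake and transport 3 fell and 1 rose. Npc1, which exports cholesterol from lysosomes, was at 20.9 to 23.3 TPM in KO and 48.0 to 59.1 TPM in WT microglia, and Stard3 and Gramd1a fell by 0.85 and 1.08 on the log2 scale, while Stard5 rose by 0.60.

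Fatty acid synthesis genes fell for 3 of 14 and rose for 1 in KO microglia. Thrsp, a regulator of lipogenesis, was at 2.2 to 11 TPM in KO and 270.8 to 483.3 TPM in WT microglia. Acly, which makes cytosolic acetyl-CoA, fell by 1.32 and Mid1ip1 by 0.26 on the log2 scale, and Fasn, at 2.70 TPM in KO and 1.27 TPM in WT microglia on average, rose by 0.74. Of 14 other mevalonate and isoprenoid enzymes Acat1, the mitochondrial thiolase, rose by 0.96, and Dolpp1 and Coq2 fell by 0.61 and 0.73. Of 14 genes of SREBP processing and stability 3 fell, Vcp by 0.36, Aup1 by 0.33 and Trib1 by 0.58. Each of these calls is from limma across all 13054 genes, of which 28.4% passed, and the lists overlap in function and were not tested as sets.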

How the data were processed

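The authors deposited 1 file of TPM values per library, rounded to 1 decimal, so a value under 0.05 TPM is listed as 0. Reads were 61 bp and paired, per the labels. Named in the submitters' processing notes are mm10, featureCounts 1.6.2, STAR 2.6.1e, cutadapt 1.9.1 and Trim Galore 0.4.2; roles, annotation, strand setting and the treatment of multiply mapped reads are not given in the sources used here. TPM is compositional, so a rise elsewhere lowers other genes.

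Of 18 libraries 17 were used. The other was left out because its title and sample code name different cell types. Groups followed the labels. The deposited TPM were transformed to log2(TPM + 1), and limma 3.58.1 in R 4.3.3 tested each gene that reached 1 TPM in 4 or more libraries of a fit (variance trend, two-sided, Benjamini-Hochberg over all genes tested). The procedure was tested on simulated data. Genotypes were compared within each cell type, the KO effect between cell types over all 17 libraries, and WT astrocytes with WT microglia. Tgfb1 alone had an exact permutation test. Astrocytes and microglia with 1 animal number came from 1 mouse, per the labels; their deviations from group means correlated by 0.017 to 0.21 over 8 pairs.

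The 28 genes, the other lists and the alternatives were chosen with earlier results of these data known. The rule for named genes took all 28 genes, Tgfb1, a few marker genes, not all of which are reported here, and, from each other list, up to 4 genes that passed the threshold, taken by rising p; 3 listed symbols were matched by a synonym. Positions are from GENCODE M21 (GRCm38), promoters from RefSeq (GRCm38.p6). Software beside R was numpy 2.4.6, pandas 2.3.3 and matplotlib 3.10.9 under Python 3.11.15. P-values rest on the spread between libraries of a group, which within a cell type come from different animals. Contrasts across cell types had no animal term, so libraries of the same mouse were treated as independent there, except where the animal was a block.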

Additional observations from a re-analysis of the deposited data

Results flagged for a closer look

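In 6 of 116 groups of values (each of the 28 genes and the sum of 18 enzymes, in 4 groups of libraries) 1 library stood far from the rest of its group; chance flags about 1 in 20 groups. Sqle accounted for 3 of them, with 742.7 TPM in KO astrocytes of animal 2 (other KO libraries 439.5 to 474.1 TPM), 877.1 TPM in WT astrocytes of animal 3 (others 673.8 to 718.3 TPM) and 23.2 TPM in WT microglia of animal 2 (others 5.4 to 7.5 TPM). Fdps was at 23.1 TPM in KO microglia of animal 3, against 31.5 to 32.5 TPM in the other KO microglia. Pmvk was at 205.9 TPM in WT astrocytes of animal 2 (others 101.0 to 128.1 TPM), and Dhcr7 at 65.7 TPM in WT astrocytes of animal 3 (others 56.9 to 58.9 TPM).

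The KO effect differed between astrocytes and microglia for 3 of the 28 genes by the limma contrast over 17 libraries, while 15.5% of all 17087 genes tested passed. These were Tm7sf2 (-1.39), Pmvk (-0.82) and Ggps1 (0.82, all as astrocytes minus microglia on the log2 scale). The call of Pmvk ended when any of several single libraries was left out.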

How the results depend on the processing

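Planned settings changed the reference (each kind of WT animal alone), the libraries (each left out in turn, or KO astrocytes 1 and 3 together), the model (a replicate block, a constant variance prior, 1 fit over all groups), the scale (quantile normalization or median-of-ratios scaling), the filter (5 TPM or none) and the pseudocount (5 or 0.1 TPM). Scaling by astrocyte markers was added after the data were seen. Over the single genes, 588 of 615 values in astrocytes, 475 of 525 in microglia, 737 of 783 for the difference of effects and 538 of 558 between WT sorts kept direction and side of the threshold. The cause of each change was not tested.

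Genes passing in KO against WT astrocytes numbered 1 as reported, 3 with no filter, against WT animals 3 to 5 or with astrocyte marker scaling, 88 with 1 fit over all groups, and 0 with the replicate block, against WT animals 1 and 2 or without KO libraries 1 and 3. The 1 fit over all groups passed 2 of the 28 genes in astrocytes, Fdft1 (limma adjusted p = 0.0309) and Tm7sf2 (0.0435). Members passing in microglia numbered 8 of 28 against WT animals 4 and 5. For the difference of effects they numbered 5 with median-of-ratios scaling or quantile normalization and 7 with WT animals 3 to 5 alone. As reported, 28.4% of all genes tested passed in microglia and 15.5% for the difference of effects. Shares of all genes under these other settings are not given here, so these counts are not set against them. Genes passing between WT astrocytes and WT microglia numbered 3339 in animals 1 and 2 and 6063 in animals 3 to 5. Leaving out each library gave 0 to 5 genes in astrocytes. In microglia it gave 3 to 7 of the 28, while 2735 to 3611 of all genes passed. For the difference of effects it gave 2 to 5 of the 28, while 2089 to 2729 of all genes passed.

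Some differences turned sign without passing. In astrocytes these were Insig2 with median-of-ratios scaling (-0.034), quantile normalization (-0.078), WT animals 1 and 2 alone (-0.056) and without KO libraries 1 and 3 (-0.095), Mbtps2 with quantile normalization (-0.012) and WT animals 1 and 2 (-0.0078), Ebp with WT animals 1 and 2 (-0.078), Srebf1 with WT animals 3 to 5 (0.020), without KO libraries 1 and 3 (0.17) and with marker scaling (0.21), and Cyp51 with marker scaling (0.0072). In microglia Srebf1 turned with quantile normalization (-0.11) and WT animals 1 and 2 (-0.0048), where Mvk (-0.66), Dhcr7 (-0.18), Stard4 (-0.14), Sqle (-0.30) and Mbtps1 (0.17) turned too. Idi1 (0.022), Nsdhl (0.00087) and Hsd17b7 (0.068) did so with WT animals 4 and 5. In the difference of effects Hmgcs1 (-0.12), Mvk (0.11, against -0.75 as reported), Idi1 (0.055), Hsd17b7 (0.22), Scap (-0.039) and Cyp51 (0.16) turned with WT animals 1 and 2, and Cyp51 (0.10) and Srebf1 (0.11) without KO libraries 1 and 3.

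Leaving out each library, values ran in astrocytes from -0.063 to 0.17 for Ebp, -0.12 to 0.11 for Srebf1, -0.036 to 0.078 for Insig2, -0.0068 to 0.41 for Dhdds and -0.0011 to 0.15 for Mbtps2. In microglia they ran from -0.10 to 0.54 for Sqle, -0.020 to 0.17 for Srebf1, -0.15 to 0.58 for Mvk and -0.054 to 0.097 for Dhcr7. For the difference of effects they ran from -0.22 to 0.052 for Srebf1, -0.081 to 0.28 for Msmo1 and -0.16 to 0.043 for Cyp51, and between WT sorts from -0.14 to 0.015 for Ggps1.

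Deviations of same-numbered KO and WT libraries correlated by -0.092 to 0.18 in astrocytes and 0.0026 to 0.023 in microglia, and not every library correlated best with its own number. Astrocytes and microglia of the same mouse correlated by only 0.017 to 0.21, so these values cannot decide whether the numbers pair KO with WT animals. With the number as a replicate block, 0 genes passed in astrocytes, and 2079 genes and 1 of the 28, Msmo1, passed in microglia, where Acat2 had a limma adjusted p of 0.0557. With this block the differences were -0.0090 for Insig2 and -0.011 for Ebp in astrocytes, and -0.023 for Srebf1, -0.11 for Mvk, -0.069 for Dhcr7 and -0.025 for Stard4 in microglia. With the animal as block in the difference of effects, Cyp51 was at 0.0059.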
